A study of Mus musculus with 7 samples.

Results

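The 34 genes described here encode the contractile apparatus of skeletal and cardiac muscle and the factors that switch it on. They are a list chosen by name, each gene was measured by the probe set that carries its symbol alone, and all 34 of 34 were measured, among 19937 genes on the array. The material was medullary epithelial cells (MECs) with high MHC class II, sorted from collagenase-dispase digests of thymi of NOD mice. The reconSCID group (3 samples) came from NOD mice with the SCID mutation of DNA-PK, and the reconRAG1KO group (4 samples), named as the control, from NOD mice with null RAG1. All recipients were irradiated with 200 rad and given bone marrow intraperitoneally 6 h later, at 2 to 4 days of age, and their thymi were taken 6 to 8 weeks after the transfer. The labels call the samples biological replicates and do not say how many thymi each holds, so the p-values measure the spread between these samples. Both mutations block the making of mature T and B cells, and the sort need not have removed every cell that the transferred marrow supplied.

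In striated muscle, myosin heads pull on actin filaments inside the sarcomere, and the troponin complex permits this when calcium is released from the sarcoplasmic reticulum. Myoblasts enter this programme under the MyoD family of basic helix-loop-helix factors, which bind E-boxes in muscle promoters together with MEF2 and serum response factor. The thymic medulla is known for displaying antigens of other organs to developing T cells, muscle proteins among them. It also holds rare myoid cells, which resemble muscle, and epithelial cells that take on a muscle-like programme.

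The promoters of 26 of the 34 genes were found in the RefSeq table of GRCm38.p6, and 5 are printed because they carry the findings below: Myog encodes the regulator with the largest difference, Acta1 and Myl2 are the members whose groups did not overlap, Actc1 is the other actin, and Myh4 holds each motif searched for. Each line gives the 250 bases before the annotated start, in the direction of transcription, at chr1:134289754-134290003 (plus strand) for Myog, chr8:123894776-123895025 (minus strand) for Acta1, chr2:114052876-114053125 (minus strand) for Actc1, chr5:122092474-122092723 (plus strand, the first of 2 starts listed) for Myl2 and chr11:67237562-67237811 (plus strand) for Myh4. Capitals mark E-boxes (CANNTG), the TATA-like letters TATAAA, MEF2 boxes (YTAWWWWTAR) and CArG boxes (CCWWWWWWGG), the last of which serum response factor binds, on either strand. Y is C or T, W is A or T, and R is A or G. Only full matches are marked, so ctatatttat of Myog, which departs from the MEF2 letters in its last base, stays in lower case.

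Myog: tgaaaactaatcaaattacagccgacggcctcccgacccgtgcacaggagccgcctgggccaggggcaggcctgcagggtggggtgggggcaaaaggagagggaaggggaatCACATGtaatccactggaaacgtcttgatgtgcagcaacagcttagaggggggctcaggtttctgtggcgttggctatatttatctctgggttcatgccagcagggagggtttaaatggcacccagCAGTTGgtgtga

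Acta1: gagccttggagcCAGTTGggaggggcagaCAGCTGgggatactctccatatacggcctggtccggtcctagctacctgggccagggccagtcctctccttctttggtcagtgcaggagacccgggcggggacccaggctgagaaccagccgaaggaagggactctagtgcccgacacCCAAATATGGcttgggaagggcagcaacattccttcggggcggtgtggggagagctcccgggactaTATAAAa

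Actc1: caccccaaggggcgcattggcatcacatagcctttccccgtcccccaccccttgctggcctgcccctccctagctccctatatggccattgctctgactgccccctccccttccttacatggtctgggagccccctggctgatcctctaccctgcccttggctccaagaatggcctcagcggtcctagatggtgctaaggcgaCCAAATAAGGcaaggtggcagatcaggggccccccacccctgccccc

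Myl2: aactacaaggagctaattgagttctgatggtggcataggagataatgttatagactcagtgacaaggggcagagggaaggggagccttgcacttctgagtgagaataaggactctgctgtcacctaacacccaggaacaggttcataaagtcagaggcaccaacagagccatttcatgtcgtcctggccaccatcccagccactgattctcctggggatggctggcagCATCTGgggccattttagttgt

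Myh4: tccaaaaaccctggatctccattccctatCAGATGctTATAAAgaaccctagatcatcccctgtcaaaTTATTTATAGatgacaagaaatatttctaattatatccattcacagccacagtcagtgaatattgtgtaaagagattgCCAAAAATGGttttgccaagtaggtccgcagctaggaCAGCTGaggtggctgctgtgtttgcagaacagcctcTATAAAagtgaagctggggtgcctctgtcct

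In these windows Acta1 had a CArG box at -73 to -64 and E-boxes at -238 to -233 and -221 to -216, the last of which reads CAGCTG. The promoter of Actc1 had a CArG box at -47 to -38, and that of Myog had E-boxes at -138 to -133 and -12 to -7. Myh4 had a MEF2 box at -182 to -173, which overlaps a TATAAA on the other strand, a CArG box at -104 to -95 and a CAGCTG at -67 to -62. Over the 26 members, counting the first start of each gene, the MEF2 box was present in 7 (26.9%), against 3.01% of 27025 genes, and the CArG box in 3 (11.5%), against 1.40%. CAGCTG was present in 10 (38.5%), against 12.8%, CANNTG in 21 (80.8%), against 66.0%, and TATAAA in 7 (26.9%), against 12.97%. Every CAGCTG is also a CANNTG. A match of letters is not a bound site, and the arrays hold no measure of binding.

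The label of the sorted cells was compared with 14 markers of MECs. Their mean log2 intensities over the 7 arrays were at least 8.07, where the median of all probe set means was 6.51. Such levels do not exclude other cells, whose markers are given below. Aire averaged 10.63 ± 0.87 (SD, n = 3) in reconSCID and 11.20 ± 0.49 (SD, n = 4) in reconRAG1KO, and the class II chaperone gene Cd74 averaged 13.35 ± 0.07 in reconSCID and 13.39 ± 0.01 in reconRAG1KO. The arrays fell into sets that the labels do not explain. Correlations over all probe sets were 0.976 to 0.990 within a larger set of 5 arrays and 0.972 between reconSCID replicate 2 and reconRAG1KO replicate 4, the smaller set, but only 0.922 to 0.947 from one set to the other. Because each set held both groups, differences are also given from a fit that blocks on array set. In 25 of the 34 members at least 2 arrays held exactly the same deposited value, a larger share than the 46.2% of all probe sets. Such ties can make the spread look smaller than it was. All values below are log2 of the deposited intensity, and differences are reconSCID minus reconRAG1KO. Intensities of different probe sets do not rank the genes.

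No muscle gene differed between reconSCID and reconRAG1KO after adjustment over all 34760 probe sets. By limma, 0 of 34 members passed at an adjusted p under 0.05, as did 0.0% of all probe sets, and the adjusted p of every member was 1.0. At an unadjusted p under 0.05, 0 members passed, against 1.19% of genes as lower and 0.863% as higher, or 3.33% of probe sets in either direction. The intervals bound what could have been missed in deposited intensity, not in transcript. Of the 34 members, 14 had a mean above the median of all probe set means (6.51). Whether the others were detected above background was not tested. The 95% interval of the log2 difference lay between -1 and 1 for 33 of the 34 members, Des being the exception, and between -0.5 and 0.5 for 23. Of all 19937 genes, 17988 and 11159 had intervals within these limits. Differences ran from -0.38 (Des) to 0.27 (Myoz1), with 24 lower and 10 higher. Their median was -0.07, against -0.01 over all genes, of which 52.4% were lower. Of the 14 members above the median level, 13 were lower, with a median of -0.18. Among all genes above that level 55.9% were lower, with a median of -0.02. Without reconSCID replicate 3 the differences of Myod1, Tnni1, Tnnt3 and Myot, counted among the 13, were no longer below 0.

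**Figure D1:**
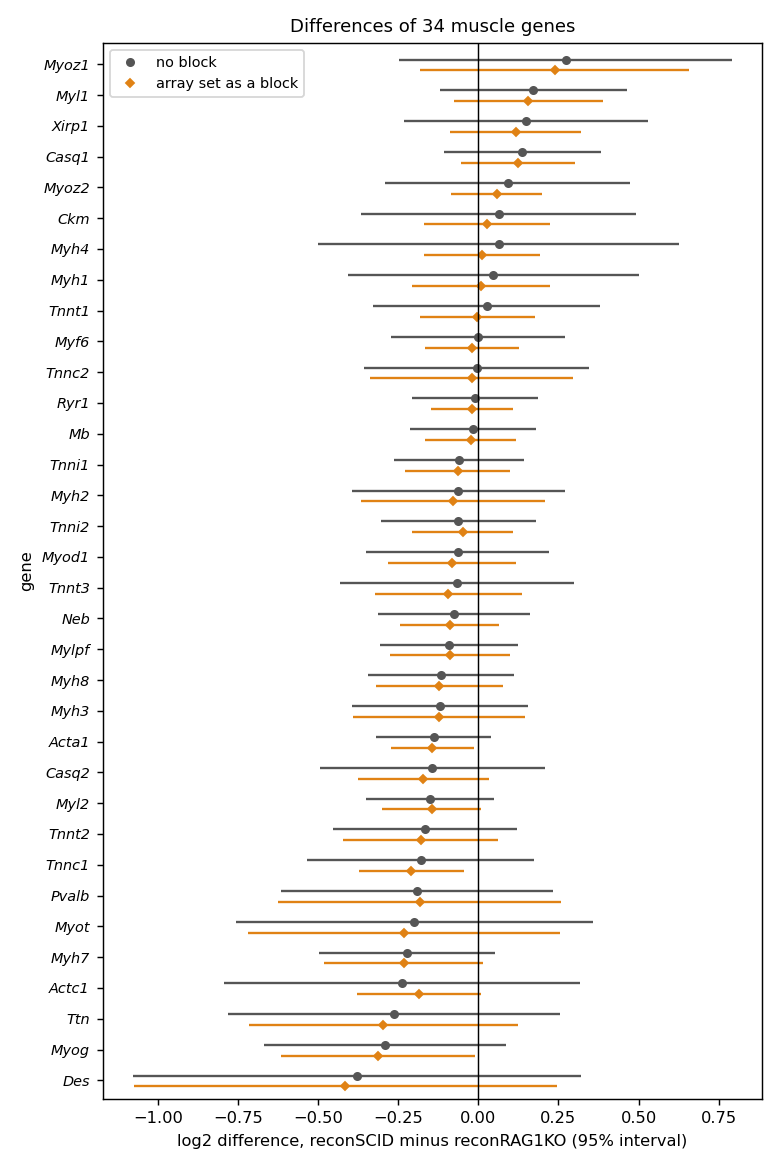
Log2 differences of the 34 muscle genes, reconSCID minus reconRAG1KO (x axis), with 95% intervals, for the fit without a block (circles) and the fit blocked on array set (diamonds). Without the block all 34 intervals include 0, and with it those of Tnnc1, Acta1 and Myog lie below 0.

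Blocked on array set, 26 of 34 members were lower with a median of -0.09, against 54.3% of genes lower with a median of -0.01. After adjustment 0 members and 0.0% of probe sets passed, the smallest adjusted limma p of a member being 0.3294. At an unadjusted p under 0.05, 3 members were lower (Tnnc1, Acta1 and Myog), against 6.75% of genes, and 0 were higher, against 5.34%. Within the 5 arrays of the larger set the median over members was -0.09 with 27 lower, and within the other 2 arrays it was 0.02 with 16 lower. Of all 19937 genes, 10727 were lower in the 5 arrays and 10337 in the 2 arrays, with a median of -0.01 in each.

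The regulators come first. Myog encodes myogenin, which drives the differentiation of myoblasts. It measured 6.30, 6.77 and 6.12 in reconSCID replicates 1, 2 and 3, against 6.75, 6.68, 6.61 and 6.71 in reconRAG1KO replicates 1 to 4. ReconSCID replicates 1 and 3 were below every reconRAG1KO sample, whereas replicate 2 was the highest of the 7. The log2 difference of Myog was -0.29 ± 0.16 (SE), with a 95% interval from -0.67 to 0.09. Blocked on array set it was -0.31, with an interval from -0.62 to -0.01, and without reconSCID replicate 3 the blocked value was -0.20. Unblocked, leaving out that sample gave -0.15 and leaving out reconSCID replicate 2 gave -0.48. Within the 5 arrays Myog differed by -0.47 and within the 2 arrays by 0.06.

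Myod1, the gene of the factor that commits cells to the myogenic lineage, measured 6.75, 6.84 and 6.57 in reconSCID, against 6.85, 6.64, 6.68 and 6.96 in reconRAG1KO. The groups overlapped, and the difference of Myod1 was -0.06 with an interval from -0.35 to 0.22. Myf6 encodes MRF4, which is expressed in mature fibres. It measured 5.57, 5.88 and 5.57 in reconSCID, against 5.60, 5.68, 5.60 and 5.80 in reconRAG1KO, and its difference was 0.00, between -0.27 and 0.27 at 95% confidence.

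Both actins were lower in reconSCID, and Acta1 was 1 of 2 members whose groups did not overlap. Acta1, the alpha-actin of skeletal muscle, measured 7.57, 7.56 and 7.49 in reconSCID, against 7.67, 7.65, 7.68 and 7.73 in reconRAG1KO. Every reconSCID array was below every reconRAG1KO array, but the step is small. Acta1 differed by -0.14 ± 0.08 (SE), with an interval from -0.32 to 0.04, or 0.91 times the reconRAG1KO intensity. The blocked value for Acta1 was -0.14 (95% interval -0.27 to -0.01). Within the larger array set Acta1 differed by -0.13 and within the smaller by -0.17. Leaving out reconSCID replicate 3 gave -0.11.

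Actc1, the alpha-actin of the heart and of embryonic muscle, measured 7.94, 7.26 and 7.90 in reconSCID, against 7.94, 8.10, 8.20 and 7.51 in reconRAG1KO. The low value in each group was the array of the smaller set, and in the other 5 arrays reconSCID lay at or below the lowest reconRAG1KO value. Actc1 differed by -0.24, with an interval from -0.79 to 0.32, or by -0.19 from -0.38 to 0.01 with the block. Leaving out reconSCID replicate 2 gave -0.02 for Actc1, and leaving out reconRAG1KO replicate 4 gave -0.38. Members lower with no overlap numbered 2 of 34, Acta1 and Myl2, where 1.54% of all genes were, and 0 were higher, where 1.23% were.

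Among the 6 myosin heavy chains, 4 were lower and 2 higher, with a median of -0.09. Myh7, the heavy chain of slow fibres and of the heart ventricle, had the smallest unadjusted p of the 34. It measured 6.33, 6.66 and 6.32 in reconSCID, against 6.60, 6.66, 6.78 and 6.60 in reconRAG1KO. As for Myog, reconSCID replicates 1 and 3 lay below all controls and replicate 2 did not. Myh7 differed by -0.22 ± 0.12 (SE), with an interval from -0.50 to 0.05 and an unadjusted limma p of 0.09552. The difference of Myh7 was -0.35 within the 5 arrays and 0.06 within the 2 arrays.

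The other 5 heavy chains lie next to each other on chromosome 11 in the order Myh3, Myh2, Myh1, Myh4 and Myh8, with 0 other protein-coding genes between neighbours. They are close in sequence, so the assignment of signal among their probe sets is uncertain. The chains of adult fast fibres, Myh2 (IIa), Myh1 (IIx) and Myh4 (IIb), differed by -0.06, 0.05 and 0.06. The developmental chains, Myh3 of embryonic and Myh8 of perinatal muscle, both differed by -0.12. Without reconSCID replicate 3 Myh3 differed by -0.04, and without reconSCID replicate 1 Myh8 differed by -0.03. Myh4 measured 5.51, 6.16 and 5.42 in reconSCID, against 5.61, 5.44, 5.42 and 6.06 in reconRAG1KO. Its high values were both arrays of the smaller set, 1 in each group, and the same held for Myh1.

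Of the myosin light chains, Myl2 was lower without overlap and Myl1 was higher. Myl2, the regulatory chain of slow and ventricular muscle, measured 6.09, 6.04 and 6.04 in reconSCID, against 6.32, 6.21, 6.17 and 6.13 in reconRAG1KO. The gap between the highest reconSCID and the lowest reconRAG1KO value was narrower than the range within reconRAG1KO. Myl2 differed by -0.15 ± 0.08 (SE), with an interval from -0.35 to 0.05, and by -0.17 and -0.09 within the 5 and the 2 arrays. Myl1, the essential chain of fast fibres, measured 3.80, 4.10 and 3.78 in reconSCID, against 3.87, 3.68, 3.57 and 3.78 in reconRAG1KO. It differed by 0.17, with an interval from -0.12 to 0.46, and the groups overlapped; without reconSCID replicate 2 it was 0.07. Mylpf, the regulatory chain of fast fibres, differed by -0.09, or by -0.04 without reconSCID replicate 3.

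**Figure D2:**
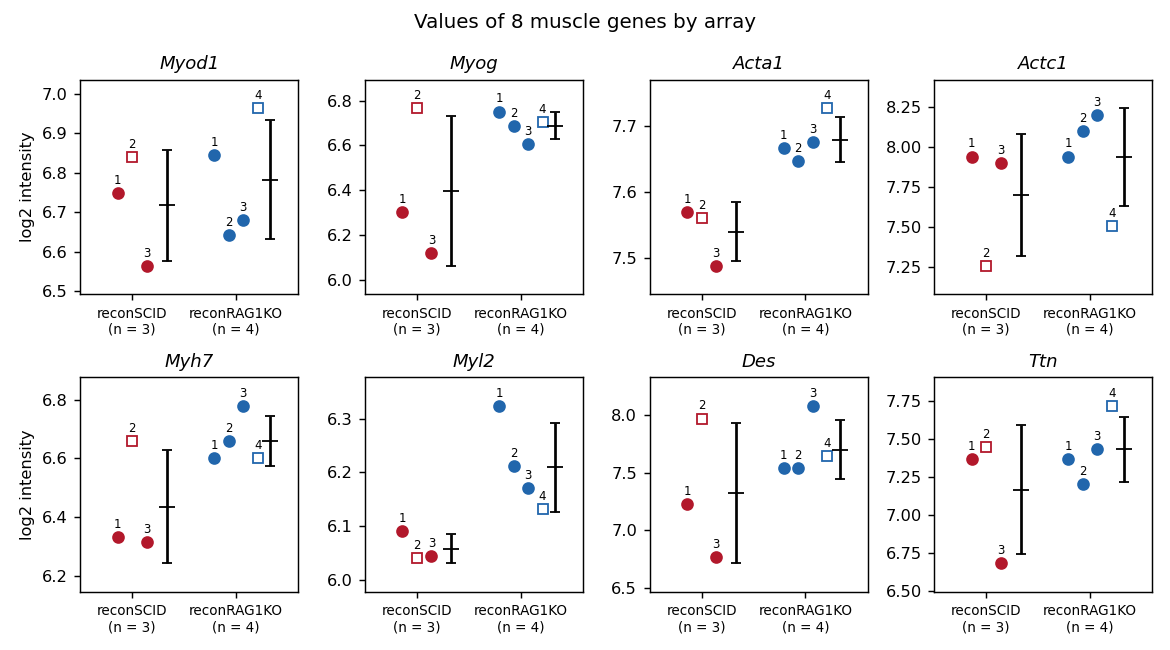
Log2 intensity (y axes, 1 scale per gene) of 8 muscle genes in the 3 reconSCID and 4 reconRAG1KO samples, with replicate numbers and, in black, mean and SD. Open squares are the 2 arrays that stand apart. Only Acta1 and Myl2 of these 8 have groups that do not overlap.

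The 7 troponin genes gave 6 lower and 1 higher, and all 7 lower in the blocked fit, with medians of -0.06 and -0.07. The unblocked count rested on reconSCID replicate 3, since without it 3 of 7 were lower with a median of 0.00, where 47.8% of all genes were lower. Blocked and without that sample, Tnni1 and Tnnt3 differed by 0.00 and Tnnt1 by 0.05. The other troponin genes stayed lower in that fit, Tnnc1 by -0.16. Troponin C binds calcium, troponin I inhibits and troponin T anchors the complex to tropomyosin. Tnnt2, the cardiac troponin T, measured 7.20, 7.20 and 6.83 in reconSCID, against 7.22, 7.20, 7.20 and 7.35 in reconRAG1KO. ReconSCID replicate 3 stood below the other 6 arrays. Tnnt2 differed by -0.17, with an interval from -0.45 to 0.12, and by -0.04 without that replicate.

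Tnni1, the slow inhibitory subunit, had the same deposited value in 5 of 7 arrays. It measured 7.14, 7.15 and 6.95 in reconSCID, against 7.14 in each of the 4 reconRAG1KO samples. Its difference of -0.06 came from reconSCID replicate 3 alone and was 0.00 without it. Tnni2, the fast inhibitory subunit, measured 7.95, 7.73 and 7.92 in reconSCID, against 8.07, 7.92, 7.92 and 7.82 in reconRAG1KO, differing by -0.06 (95% interval -0.31 to 0.18).

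Tnnt3, the fast troponin T, measured 7.43, 7.75 and 7.19 in reconSCID, against 7.57, 7.43, 7.40 and 7.69 in reconRAG1KO. The groups overlapped with a difference of -0.07, and it was 0.07 without reconSCID replicate 3. Tnnc1, the calcium-binding subunit of slow and cardiac muscle, differed by -0.18, with an interval from -0.53 to 0.18, and by -0.08 without either reconSCID replicate 3 or reconRAG1KO replicate 4. Blocked on array set it was -0.21 (95% interval -0.37 to -0.04), which gave the smallest blocked unadjusted limma p of the 34, 0.02133. The fast subunit Tnnc2 and the slow troponin T gene Tnnt1 differed by -0.01 and 0.03.

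The scaffold genes held both the lowest and the highest difference of the 34. Des encodes desmin, the intermediate filament that ties myofibrils together. It measured 7.23, 7.97 and 6.76 in reconSCID, against 7.54, 7.54, 8.08 and 7.65 in reconRAG1KO. ReconSCID replicates 1 and 3 were below all controls and replicate 2 was above 3 of them. Des differed by -0.38 ± 0.29 (SE), with an interval from -1.08 to 0.32, by -0.72 in the larger array set and by 0.32 in the smaller. Leaving out reconSCID replicate 3 gave -0.10 for Des, and leaving out reconSCID replicate 2 gave -0.71. Desmin is also made by smooth muscle and pericytes.

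Ttn encodes titin, the spring that spans each half-sarcomere. It measured 7.37, 7.45 and 6.68 in reconSCID, against 7.37, 7.20, 7.43 and 7.72 in reconRAG1KO. Only reconSCID replicate 3 was below the range of the controls. Ttn differed by -0.26, with an interval from -0.78 to 0.26, and by -0.02 without that sample.

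Myot, the Z-disc protein myotilin, showed the same arrangement. It measured 6.92, 7.10 and 6.32 in reconSCID, against 6.92, 6.60, 7.19 and 7.21 in reconRAG1KO, a difference of -0.20 that was 0.03 without reconSCID replicate 3. Neb, whose product nebulin runs along the thin filament, differed by -0.08, or by 0.00 without that sample. On the higher side stood Myoz1 (0.27), Myoz2 (0.09) and Xirp1 (0.15), which encode calsarcins and the actin-binding Xin. Myoz1 measured 5.39, 6.25 and 5.41 in reconSCID, against 5.43, 5.46, 5.34 and 5.41 in reconRAG1KO. ReconSCID replicate 2 alone was high, and without it the difference of Myoz1 was -0.01.

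Of the calcium-handling genes, the calcium stores Casq1 (fast fibres) and Casq2 (slow fibres and heart) differed by 0.14 and -0.14, the release channel gene Ryr1 by -0.01 and the calcium buffer gene Pvalb by -0.19. Single samples carried much of this. Casq1 differed by 0.05 without reconSCID replicate 2, Casq2 by -0.03 without reconRAG1KO replicate 4 and Pvalb by -0.04 without reconRAG1KO replicate 3. Ckm encodes the creatine kinase of muscle. It measured 7.12, 7.48 and 7.12 in reconSCID, against 7.13, 6.90, 7.12 and 7.57 in reconRAG1KO, differing by 0.06 (95% interval -0.37 to 0.49). Both high values were arrays of the smaller set. Mb, the gene of the oxygen store myoglobin, differed by -0.02, with an interval from -0.21 to 0.18.

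By fibre type, 5 of 7 genes listed as slow (Myh7, Myl2, Tnnc1, Tnni1, Tnnt1, Myoz2 and Casq2, with the cardiac genes Actc1 and Tnnt2 not counted) were lower, with a median of -0.14, and 6 of 11 genes of fast fibres, with a median of -0.01. Without reconSCID replicate 3 these medians were -0.08 and 0.07, with 4 of 7 and 4 of 11 lower. Within the 2 arrays they were 0.01 and 0.10. Whether slow and fast genes differed from each other was not tested.

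**Figure D3:**
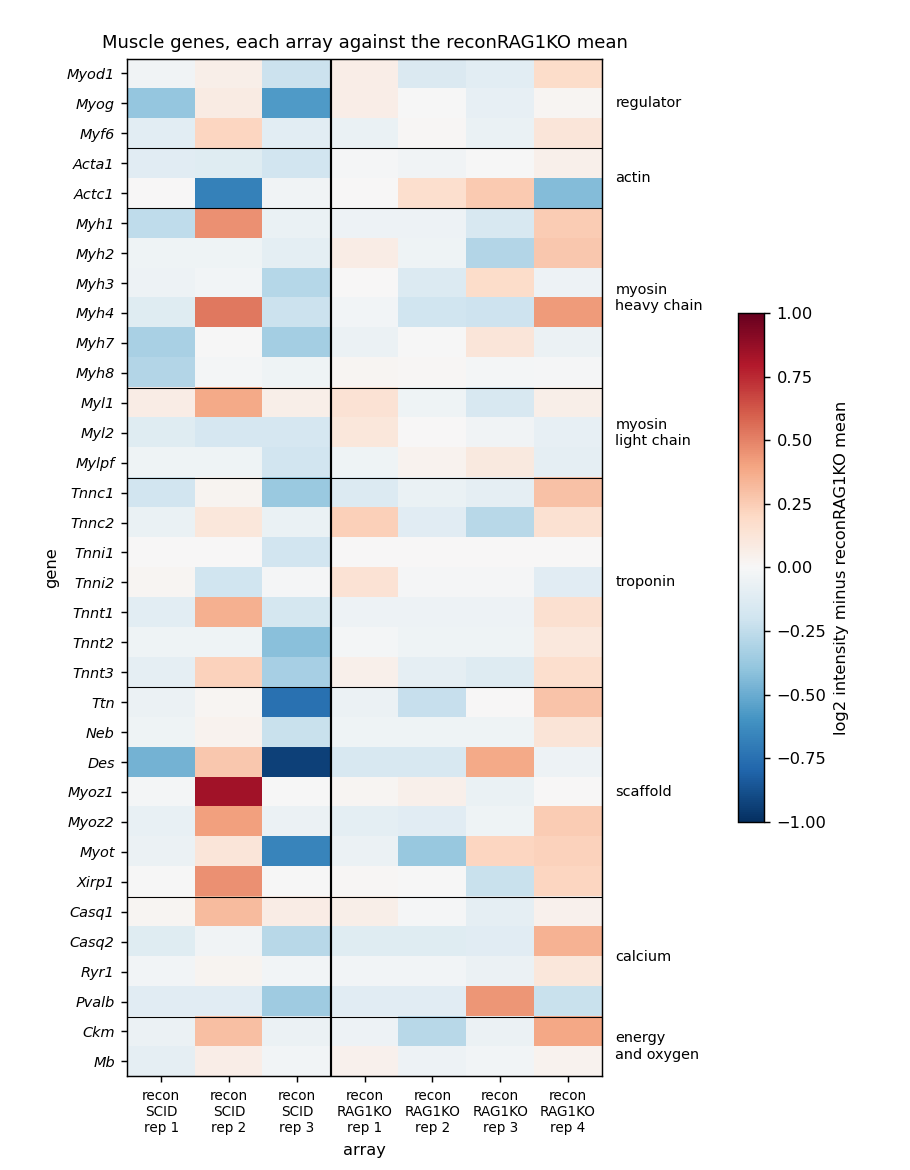
Log2 intensity of each array (columns, reconSCID left of the line) minus the reconRAG1KO mean of that gene, for the 34 muscle genes grouped by role (rows). Blue is lower and red higher. ReconSCID replicate 3 is mostly blue, and reconSCID replicate 2 and reconRAG1KO replicate 4 hold most of the red.

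Low values were most frequent in 1 sample. ReconSCID replicate 3 held the lowest of the 7 values for 18 of 34 members (52.9%), against 23.7% of all genes, and was below every reconRAG1KO sample for 21 of 34 (61.8%), against 29.7%. ReconSCID replicate 1 was below every control for 11 members (32.4%), against 24.9% of genes, and reconSCID replicate 2 for 4 (11.8%), against 20.0%. As a median deviation from the reconRAG1KO mean, the members stood at -0.06, 0.05 and -0.18 in reconSCID replicates 1, 2 and 3, where all genes stood at -0.03, 0.04 and -0.03. The 2 arrays of the smaller set held the highest value for 24 of 34 members (70.6%), against 57.6% of all genes. Without reconSCID replicate 3 the median difference over members was -0.01 with 19 of 34 lower. With the block and without that sample it was -0.03 with 24 lower, against -0.01 and 53.5% lower for all genes. Without that sample all genes had an unblocked median of 0.01 with 47.8% lower. Without reconSCID replicate 2 the members' median was -0.14 with 31 lower, against -0.04 and 59.7% lower for all genes. Without reconRAG1KO replicate 4 it was -0.03 with 21 lower, against 0.02 and 43.7% lower for all genes.

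**Figure D4:**
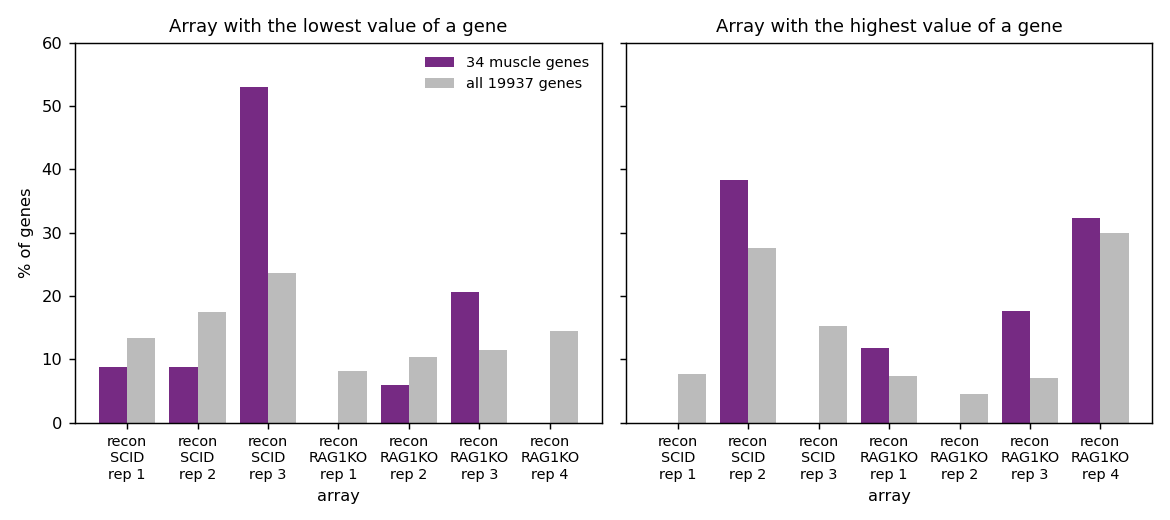
Share of genes (y axis, %) whose single lowest (left) or highest (right) log2 value lay in each array, for the 34 muscle genes and all 19937 genes. Ties are not shown. ReconSCID replicate 3 holds the lowest value of 52.9% of muscle genes and 23.7% of all genes.

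Cell type markers also moved with that sample. The mean log2 of 14 MEC markers was 10.08, 10.65 and 9.64 in reconSCID replicates 1, 2 and 3, against 10.27, 10.39, 10.58 and 10.82 in reconRAG1KO, and 14 of 14 had a lower mean in reconSCID, or 13 of 14 with the block and 11 of 14 without reconSCID replicate 3. Their summed intensity ran from 25693 to 34591 in reconSCID and from 30391 to 38163 in reconRAG1KO. For 7 B cell markers the means were 7.74, 6.94 and 8.75 in reconSCID, against 7.10, 6.99, 6.75 and 6.78 in reconRAG1KO, with 7 of 7 higher. Their summed intensity ran from 918.0 to 3561 in reconSCID and from 815 to 1042 in reconRAG1KO. None of the markers was listed at 0, and no deposited value of any probe set lay below 1. The part of these cells in the muscle values was not tested, and in bulk samples fewer cells of a type and less RNA per cell cannot be told apart. Fibroblast markers, 6 measured, were high in the smaller set, with means of 7.05, 8.83 and 6.86 in reconSCID and 6.83, 7.06, 7.23 and 8.15 in reconRAG1KO. Myoz1 was highest in reconSCID replicate 2 as well, which held the highest value of 27.6% of all genes. In reconRAG1KO replicate 4 Myoz1 was 5.41, within the range of the other controls. A link of Myoz1 to fibroblasts was not tested. The mean of 9 T cell markers was also highest in reconSCID replicate 3, at 7.92, 7.22 and 8.51 in reconSCID, against 8.25, 8.28, 7.66 and 7.39 in reconRAG1KO, with summed intensities of 1469 to 4192 in reconSCID and 1796 to 3439 in reconRAG1KO. The median differences of the T cell, 9 dendritic cell and macrophage, 6 neutrophil and 6 endothelial markers were -0.01, 0.20, -1.43 and 0.22. Dendritic cell and macrophage markers summed to 4387 to 15005 in reconSCID and 5333 to 9376 in reconRAG1KO, and neutrophil markers to 459 to 1282 in reconSCID and 576 to 6299 in reconRAG1KO.

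Muscle-related genes outside the 34 were likewise without a call. Of 38 further sarcomere genes measured, 25 were lower with a median of -0.05, of 19 genes of muscle calcium handling and membrane 8 were lower (median 0.01), and of 18 genes of muscle metabolism 13 were lower (median -0.03). Of 23 further myogenic and cardiac regulators 16 were lower (median -0.04), and of 19 smooth muscle and non-muscle contractile genes 15 were lower (median -0.05), where 52.4% of all genes were lower. Without reconSCID replicate 3 the median turned positive for the regulators (0.05, with 6 of 23 lower) and the sarcomere genes (0.01, with 18 of 38 lower), and 6 of 19, 9 of 18 and 13 of 19 were lower in the lists of calcium handling, metabolism and smooth muscle. After adjustment 0 genes of these 5 lists passed in either direction. At an unadjusted p under 0.05, 2 of 116 genes (Actn2, on 2 of the lists, counted once) were higher (Mef2a and Mef2c, both regulators), against 0.863% of genes, and 0 were lower, against 1.19%. Blocked on array set, 9 of 116 were lower at that threshold, against 6.75% of genes, and 2 were higher, against 5.34%.

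The 2 genes with the highest mean in each list were Tpm3 (0.06) and Actn3 (-0.64), Atp2a2 (0.07) and Jph1 (-0.38), Eno3 (-0.33) and Fabp3 (-0.05), Mef2a (0.25) and Mef2d (0.08), and Actb (-0.02) and Myl6 (-0.16), with their log2 differences. Actn3, the alpha-actinin of fast fibres, measured 9.41, 9.73 and 8.64 in reconSCID, against 9.66, 9.66, 10.16 and 10.13 in reconRAG1KO. Its interval ran from -1.31 to 0.03, or from -1.26 to -0.11 with the block, and without reconSCID replicate 3 the difference of Actn3 was -0.33. Jph1 differed by -0.09 and Eno3 by -0.61 without that sample, and blocked on array set Eno3 differed by -0.15 and Myl6 by -0.02. Tpm3, Atp2a2, Fabp3, Actb and Myl6 are used by many cell types.

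Mef2c, a partner of the MyoD factors that B cells also express, was picked here after its values were seen. It measured 7.80, 7.02 and 8.48 in reconSCID, against 7.0, 6.68, 6.67 and 6.72 in reconRAG1KO. The groups did not overlap. The reconSCID samples had the same order, with replicate 2 lowest and replicate 3 highest, in the B cell, T cell and dendritic cell and macrophage markers. In the controls, replicate 1 was highest and replicate 3 lowest for both Mef2c and the B cell mean (7.10, 6.99, 6.75 and 6.78). The remaining controls were in opposite order. The T cell mean was instead highest in reconRAG1KO replicate 2, and the dendritic cell and macrophage mean was not lowest in reconRAG1KO replicate 3. The T cell mean reached 8.28 in reconRAG1KO, above the 7.92 of reconSCID replicate 1. In reconSCID replicate 2 the T cell and the dendritic cell and macrophage means were below every control, and the B cell mean lay within their range. The part of those cells in Mef2c was not tested. Mef2c differed by 0.9998 ± 0.32 (SE), with an interval from 0.23 to 1.77, an unadjusted limma p of 0.0179 and an adjusted p of 1.0. It differed by 0.64 without reconSCID replicate 3, by 1.36 within the 5 arrays and by 0.30 within the 2 arrays. Mef2a measured 10.18, 9.94 and 10.14 in reconSCID, against 9.94, 9.84, 9.80 and 9.74 in reconRAG1KO, differing by 0.25 (95% interval 0.02 to 0.49).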

How the data were processed

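The authors deposited 1 intensity per probe set and array on a linear scale, already summarised and brought to nearly the same level (array medians 88.6 to 96.3). This was done by a method not given in the sources used here, and per the labels' protocols biotinylated cRNA came from 6 µg total RNA. The platform annotation table names 1 gene for 21640 of the 34760 probe sets, several for 1321 and none for 11799. Log2 was taken with no pseudocount. Each of the 34 members had exactly 1 such probe set, so the choice of the one with the highest mean changed nothing.

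The test was limma's moderated one (version 3.58.1, R 4.3.3; lmFit, then eBayes), two-sided, and its p-values were adjusted by Benjamini-Hochberg over the whole table, with calls at 0.05. Members and lists were chosen with earlier results of these data known. Per-sample values are given for the 3 regulators, for up to 12 members above the median level and for the 6 smallest p-values. Myh4, Myoz1 and Mef2c were added after their values were seen. Numbers of arrays limit the precision.

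Same-numbered samples of the groups deviated from their group means with correlations of 0.472, -0.509 and 0.314, so the replicate numbers were not taken to pair them.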

Additional observations from a re-analysis of the deposited data

Results flagged for a closer look

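In reconRAG1KO, 7 of 34 members had 1 sample standing apart from the other 3 by Dixon's ratio of gap to range, for which chance gives about 1 in 20 groups. In 6 of the 7 the sample was replicate 4, of the smaller array set. The ratio was 0.842 for Tnnc1 (6.24, against 5.81 to 5.88 in the others), 0.999 for Tnnt1 (5.58, against 5.36), 0.865 for Tnnt2 (7.35, against 7.20 to 7.22), 1.0 for Neb (6.03, against 5.86), 0.990 for Casq2 (5.67, against 5.20 to 5.21) and 0.845 for Ryr1 (6.39, against 6.21 to 6.24). For Pvalb it was 0.830, with replicate 3 at 7.04, against 6.37 to 6.49. For Neb the other 3 samples held 1 identical deposited value, which sets the ratio to 1.0. For Tnnt1, Tnnt2, Casq2, Ryr1 and Pvalb the other 3 samples held only 2 distinct values. With such ties the rate of 1 in 20 need not hold. By the same ratio 20.6% of members and 31.1% of all genes were past the limit, and replicate 4 was the sample apart in 17.6% of members and 24.8% of all genes.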

How the results depend on the processing

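The count of 0 probe sets and 0 members called held in every alternative run. These included a replicate block run on its own, quantile normalization and array median centring. Others were a filter on low values (14 members remained, 13 of them lower), a pseudocount of 16 and an intensity trend with a robust fit. Further runs blocked on array set, took the larger array set alone or left out each sample. Averaging a gene's probe sets could change no member, since each has 1. The median over members lay between -0.18 (filter) and -0.01 in these alternatives, and was 0.02 within the 2 arrays of the smaller set, where there is no replicate. Leaving out 1 sample gave -0.1354 to -0.0065, and the replicate block gave -0.03. Of 524 values of single members under other settings, 478 kept their sign and 46 changed it, in 17 members. The cause was not tested. Signs changed under quantile normalization for Myf6 (-0.0402), Myh1 (-0.0085) and Tnnt1 (-0.0234), under array median centring for Myf6 (-0.0144), under the replicate block for Myh2 (0.0275), Tnnc2 (0.045) and Ryr1 (0.0285), when blocking on array set for Myf6 (-0.0196) and Tnnt1 (-0.0032) and in the larger array set alone for Myf6 (-0.0646), Myh1 (-0.0737), Myh2 (0.0193), Myh4 (-0.0249), Tnnt1 (-0.084), Myoz1 (-0.0125) and Ryr1 (0.009). When that block was combined with leaving out reconSCID replicate 3, an alternative chosen after seeing the data, they changed for Myf6 (-0.0033), Myh1 (-0.0206), Tnni1 (0.0023) and Tnnt3 (0.0015). Leaving out 1 sample at a time gave ranges of -0.1258 to 0.0119 for Myod1, -0.1058 to 0.0531 for Myf6, -0.1582 to 0.1961 for Myh1, -0.1606 to 0.0275 for Myh2, -0.1679 to 0.2061 for Myh4, -0.0986 to 0.0753 for Tnnc2, -0.0945 to 0.0029 for Tnni1, -0.1056 to 0.0044 for Tnni2, -0.1379 to 0.1248 for Tnnt1, -0.2134 to 0.0669 for Tnnt3, -0.0126 to 0.4198 for Myoz1, -0.0675 to 0.1758 for Myoz2, -0.3588 to 0.0287 for Myot, -0.0052 to 0.2245 for Xirp1, -0.03 to 0.0285 for Ryr1, -0.0556 to 0.1931 for Ckm and -0.0606 to 0.0199 for Mb. Background correction and slide were not varied, since no scanner files were used here.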
